A study of Homo sapiens with 21 samples.

Results

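HMGA2, HMGA1, IGF2BP1, IGF2BP2, IGF2BP3 and LIN28B are grouped as oncofetal genes, active in the embryo and often raised in tumors. Most of them are nearly silent in adult tissue, whereas IGF2BP2 stays widely expressed. The binding of HNRNPK to their RNAs was examined in 4 PAR-CLIP libraries of MDA-MB-231 cells, an established triple-negative breast cancer line. Members are the deposited clusters that carry 1 of these 6 gene names. This gave 1354 of the 778762 clusters in all, and 6 of the 18322 gene names. The libraries came from the cytoplasm and the nucleus of parental cells, and from the cytoplasm and the nucleus of cells in which KRT19, the gene of the intermediate filament protein keratin 19, had been knocked out by CRISPR/Cas9 (KRT19 KO). All cells were labelled with 4-thiouridine (4SU), and HNRNPK was immunoprecipitated with an antibody against HNRNPK/J, which also detects its putative splice variant. The comparison of KRT19 KO with parental cells asks how the RNA contacts of HNRNPK differ without keratin 19, and that of cytoplasm with nucleus asks where they lie in the cell. Whether the KRT19 KO cells are 1 clone is not given in the sources used here. Each condition had 1 library, so no difference below has a replicate check, no test between conditions was possible, and the cell lines cannot be told apart from their preparations.

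HNRNPK is a KH-domain protein that binds C-rich stretches of single-stranded RNA. In PAR-CLIP, a crosslinked 4SU appears in the reads as a T-to-C change, and a group of overlapping reads with such changes is called as a cluster. HMGA1 and HMGA2 are AT-hook proteins that bend DNA and shape chromatin, and HMGA2 is known for the let-7 sites in its long 3'UTR. IGF2BP1, IGF2BP2 and IGF2BP3 bind mRNAs and affect their stability, transport and translation. LIN28B blocks the maturation of let-7 microRNAs, which in turn repress LIN28B, HMGA2 and the IGF2BP genes.

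The sequences below are from among the 3 deepest contacts of each gene except IGF2BP1. They are shown because several of the differences below turn on them. Each is a window of at most 30 bases around the most covered position of the deepest cluster, read 5′ to 3′ on the strand of the gene. Positions are on GRCh37, whose sequence was identical to that of 1354 of the 1354 clusters. Runs of at least 3 C are in capitals.
HMGA2 intron 3, chr12:66268939-66268968, plus strand: ttactCCCCtattctcatatgagaaaatat
HMGA2 intron 2, chr12:66228600-66228629, plus strand: ttatatttCCCatttaacatttctcctaat
HMGA2 3'UTR, chr12:66358618-66358647, plus strand: ataattttcctcaatcacactacacatcac
HMGA1 3'UTR, chr6:34213226-34213255, plus strand: acgtggggctcacttttcatccttCCCCaa
HMGA1 3'UTR, chr6:34213319-34213348, plus strand: gtCCCCtactCCCtcttcactgtggccaca
IGF2BP2 intron 10, chr3:185386195-185386224, minus strand: ttcttcttttatccaaatttcaCCCaatac
IGF2BP3 3'UTR, chr7:23350407-23350436, minus strand: acatatatataaCCCtttaaaaaaaaaatc
LIN28B intron 3, chr6:105513966-105513990, plus strand: tgagCCCaggagctctaggctgtag
The deepest HMGA2 site in the 3'UTR held no run of CCC in its window. The LIN28B window was matched at 48 places of the genome when 1 mismatch was allowed, and all the other windows at 1 or 2 places, so the assignment of the LIN28B reads is uncertain.

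Reads in clusters numbered between 3252800 and 6216226 per library, and no deposited cluster had fewer than 5 reads. A gene or site without a cluster may therefore lie under this limit. Unique reads made up 30.9% and 45.6% of reads in the parental and KRT19 KO cytoplasm, and 19.99% and 19.0% in the nuclei. Introns held 42.3% of reads in the parental but 23.0% in the KRT19 KO cytoplasm, against 67.0% and 59.7% in the nuclei. Because of this gap between the cytoplasmic libraries, ratios of intronic reads alone are given as well. KRT19 had 1 cluster of 7 reads in the parental, and 1 cluster of 5 reads in the KRT19 KO cytoplasm, which checks no label. Levels are given as reads per 1000000 reads in clusters (RPM), and the intervals in parentheses are 95% intervals for counting error only.

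HMGA2 carried the most reads of the 6 genes in 3 of the 4 libraries, while IGF2BP1 and LIN28B were close to the limit of detection. HMGA2 had 10140 reads in 201 clusters in the parental cytoplasm, 4390 in 136 in the KRT19 KO cytoplasm, 10367 in 230 in the parental nucleus and 3996 in 140 in the KRT19 KO nucleus. By reads it ranked 3rd of 13517 genes in the parental nucleus, 17th of 13388 in the parental cytoplasm, 25th of 13581 in the KRT19 KO nucleus and 138th of 12928 in the KRT19 KO cytoplasm. IGF2BP2 followed with 3812, 1712, 3374 and 2331 reads in the same order as for the HMGA2 reads, and IGF2BP3 with 1798, 697, 1205 and 510. Both had fewer reads in the KRT19 KO than in the parental library of each fraction. HMGA1 went the other way, with 444 reads in the parental against 9083 in the KRT19 KO cytoplasm, and 871 and 1520 in the nuclei. IGF2BP1 had 1 cluster of 7 reads in the parental cytoplasm, 1 of 9 reads in the parental nucleus and none in KRT19 KO cells, and LIN28B had 1 cluster of 14 reads in the KRT19 KO nucleus alone.

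**Figure D1:**
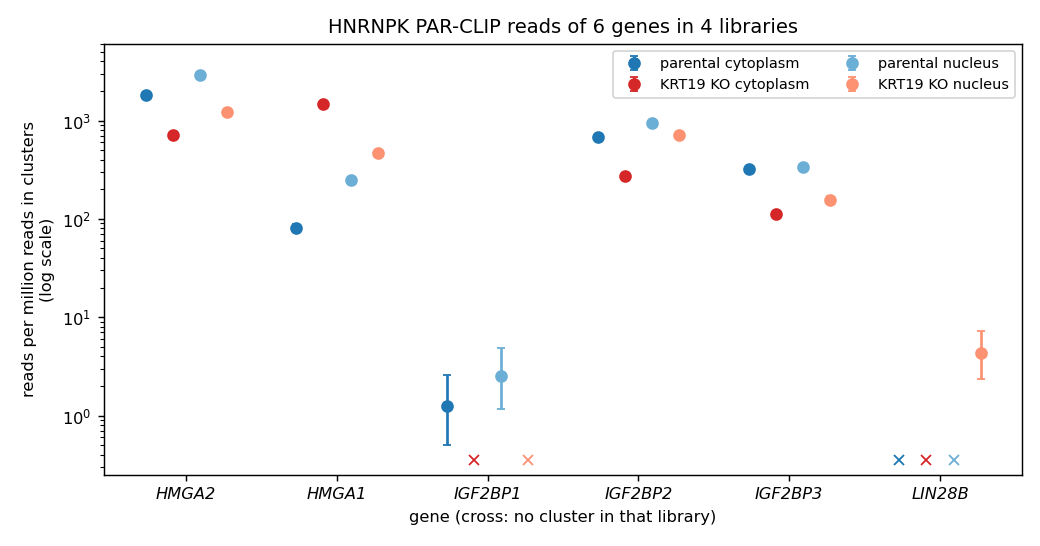
RPM (log axis) of the 6 genes, 1 point per library with its 95% counting interval, and crosses where a library had no cluster. In each fraction the KRT19 KO points of HMGA2, IGF2BP2 and IGF2BP3 lay under the parental ones, while HMGA1 lay at 80.0 RPM in the parental against 1461 RPM in the KRT19 KO cytoplasm.

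HNRNPK contacted HMGA2 along its whole length, and mostly in introns. HMGA2 lies on chromosome 12 (66218240 to 66360071, plus strand), and its 707 clusters joined into 423 sites, counted where clusters of any library overlapped by at least 1 nt. Intron 3, which separates the exons of the AT-hooks from the rest of the protein and takes up 79.5% of the gene, held 338 sites or 79.9% of them. The density was 3.82, 2.40, 2.996 and 2.79 sites per kb in introns 1 to 4, so the sites were spread over the introns about as their lengths were. Over the whole gene HMGA2 had 2.98 sites per kb, more than 99.2% of the 7219 genes with at least 10 sites, whose median was 0.658. IGF2BP2 had 1.52 sites per kb, more than 92.1% of these genes, and IGF2BP3 0.724, more than 55.9%.

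**Figure D2:**
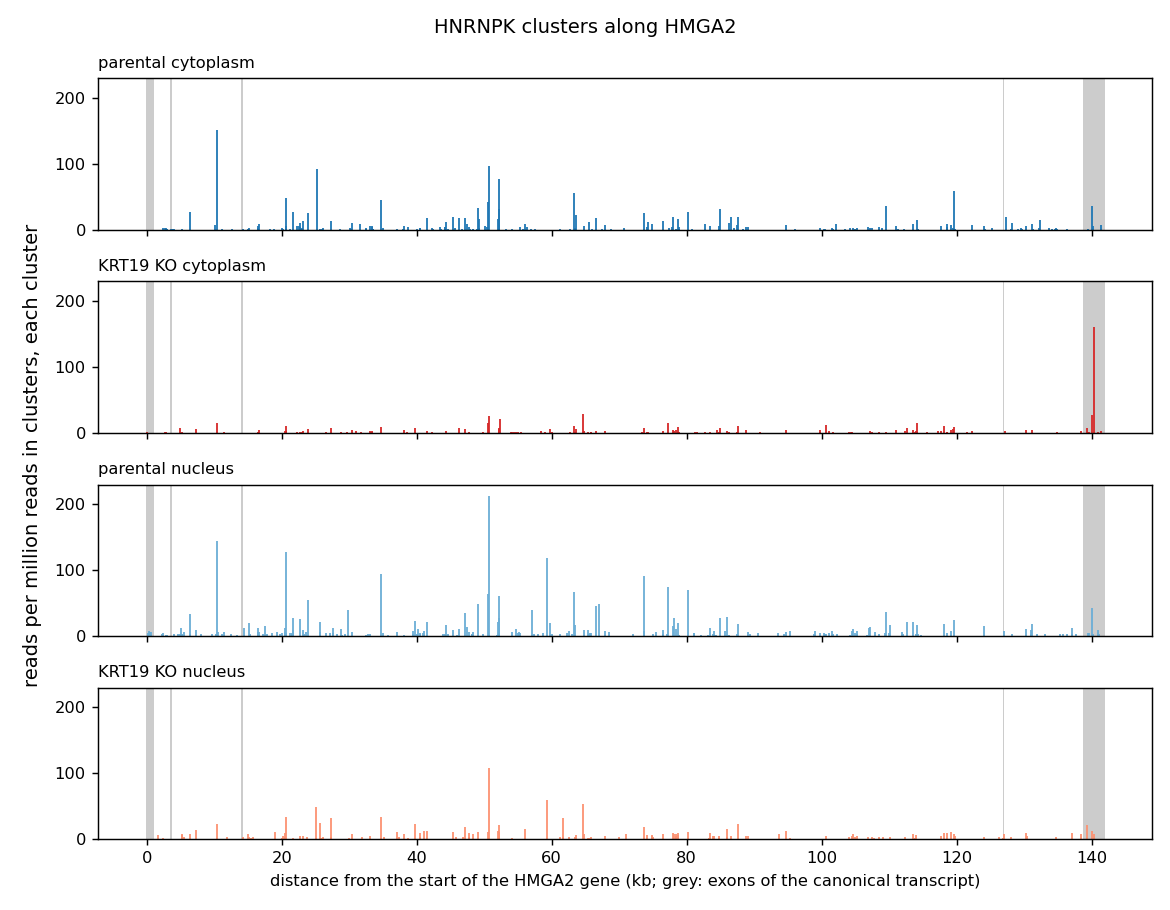
Clusters along HMGA2 in the 4 libraries, as the distance from the start of the gene (kb) against the RPM of each cluster, with exons in grey. The 10 deepest sites held 38.5% of the reads in the parental cytoplasm and 36.2% in the parental nucleus, and in the KRT19 KO cytoplasm the highest line was the 3'UTR site of 1000 reads.

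The site with the most HMGA2 reads, in intron 3 (chr12:66268924-66268968), had 540 reads in the parental cytoplasm, 154 in the KRT19 KO cytoplasm, 752 in the parental nucleus and 348 in the KRT19 KO nucleus. The site in intron 2 (chr12:66228598-66228635) had 838, 91, 512 and 73 reads in the same order. Within each fraction the KRT19 KO library had fewer reads than the parental one at both sites. The reads of intron 2 as a whole were 1068, 193, 867 and 203, with a log2 ratio of KRT19 KO to parental RPM of -2.63 (-2.86 to -2.41) in the cytoplasm and -1.97 (-2.20 to -1.75) in the nucleus. Those of intron 3 gave -1.72 (-1.78 to -1.66) and -1.22 (-1.28 to -1.16), and those of intron 4 gave -2.37 (-2.71 to -2.05) and -0.88 (-1.19 to -0.58). Intron 1 had few reads and gave -2.36 (-3.40 to -1.44) and -0.54 (-1.34 to 0.23). Scaled to intronic reads, the cytoplasmic ratios of introns 2, 3 and 4 were -1.75 (-1.98 to -1.53), -0.84 (-0.90 to -0.78) and -1.496 (-1.83 to -1.17), and the nuclear ones -1.81 (-2.04 to -1.59), -1.05 (-1.11 to -0.996) and -0.72 (-1.02 to -0.42). Introns 2, 3 and 4 thus gave ratios below 0 in both fractions under both scalings, at different sizes.

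Between the cell lines, the HMGA2 level was 1826.5 RPM in the parental against 706 RPM in the KRT19 KO cytoplasm, 2.59-fold lower, with a log2 ratio of -1.37 (-1.42 to -1.32). In the nucleus it was 2931 and 1228 RPM, 2.39-fold lower, with a log2 ratio of -1.25 (-1.31 to -1.20). Of the genes with at least 50 reads in a pair of libraries, 22.4% were lower by more than 2-fold in the KRT19 KO cytoplasm and 20.6% were higher, and 18.2% were lower and 14.4% higher in the nucleus. The medians of these genes were -0.08 and -0.10. HMGA2 was below all but 15.5% of them in the cytoplasm and all but 13.6% in the nucleus. Counted as intronic reads over all intronic reads of a library, the log2 ratio was -0.95 (-1.005 to -0.89) in the cytoplasm, within 2-fold, and -1.09 (-1.14 to -1.03) in the nucleus, with 15.6% and 15.2% of genes lower by more than 2-fold. Less HMGA2 RNA and less binding per RNA cannot be told apart in these libraries, since RNA levels were not analysed here.

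**Figure D3:**
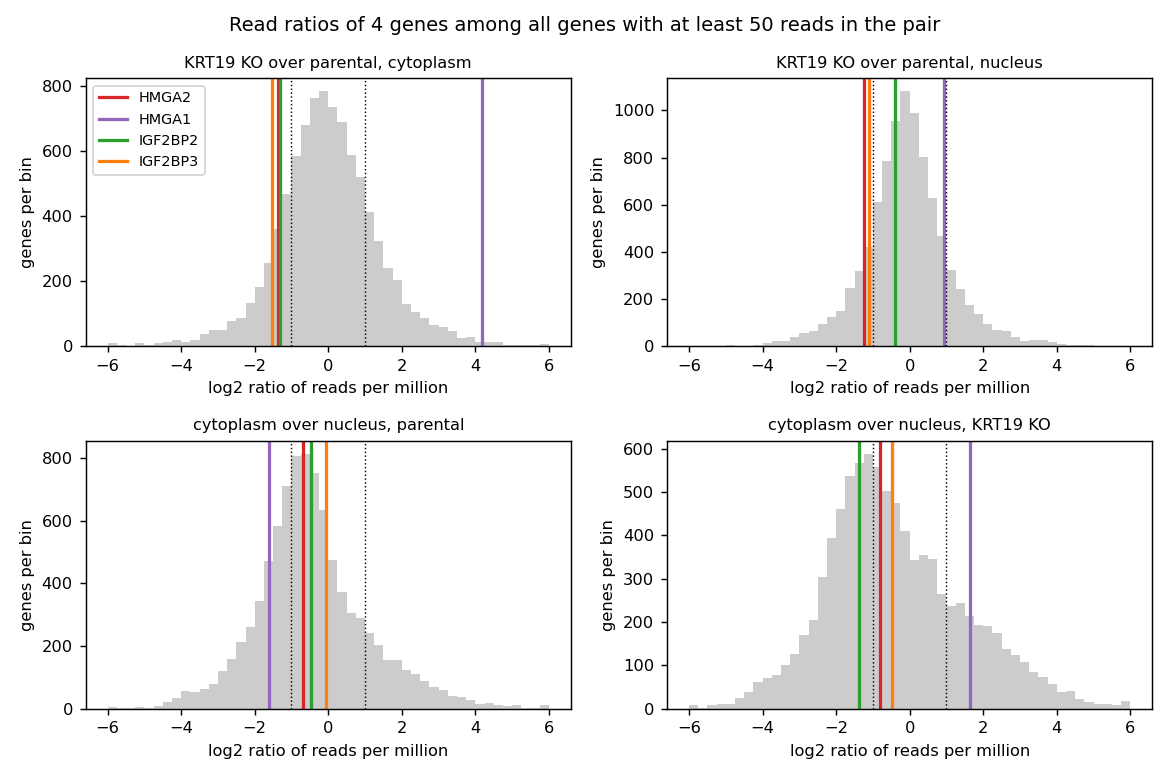
Number of genes by log2 ratio of RPM (bins of 0.25) for the 4 pairs of libraries, with HMGA2, HMGA1, IGF2BP2 and IGF2BP3 as colored lines and the 2-fold limits dotted; ratios past 6 in size are drawn in the end bins and genes without reads in 1 library of a pair are left out. HMGA2, IGF2BP2 and IGF2BP3 lay left of 0 in both comparisons of the cell lines, and HMGA1 lay at 4.19 in the cytoplasm.

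The lower HMGA2 level was spread over many sites. Of its 65 sites with at least 50 reads in the pair of cytoplasmic libraries, 47 were lower by more than 2-fold in KRT19 KO cells. Of these 47, 15 had no KRT19 KO cluster. Another 5 were higher, all 5 with no parental cluster. Over the sites of all genes, 27.7% were lower and 32.1% higher in that comparison. In the nuclei, 38 of 67 HMGA2 sites were lower and 5 were higher, against 38.2% lower and 23.7% higher over all genes. Of these, 19 of the 38 had no KRT19 KO cluster and all 5 had no parental cluster. Sites with a cluster in only 1 library of the pair reached the 50 reads through that library alone, also over all genes. HMGA2 had 29 sites with a cluster in all 4 libraries. All 29 had lower RPM in the KRT19 KO than in the parental cytoplasm, and 20 of them in the nucleus too. Their median log2 ratio was -1.68 in the cytoplasm and -0.72 in the nucleus, against -0.41 and -0.11 for the 8656 such sites of all genes. Of those 8656 sites, 5658 were lower in the KRT19 KO cytoplasm and 3326 in both fractions. On intronic sites alone, scaled to intronic reads, 36 of 62 HMGA2 sites were lower by more than 2-fold in the KRT19 KO cytoplasm and 4 higher, against 24% and 28.9% over all genes, and 34 of 65 were lower and 5 higher in the nucleus, against 36.6% and 24.5%. By that scaling 23 of the 28 intronic sites in all 4 libraries were lower in the KRT19 KO cytoplasm and 16 in both fractions, against 38.8% and 23.0% of 6580 such sites of all genes. Sites of 1 RNA share its level and are not replicates.

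**Figure D4:**
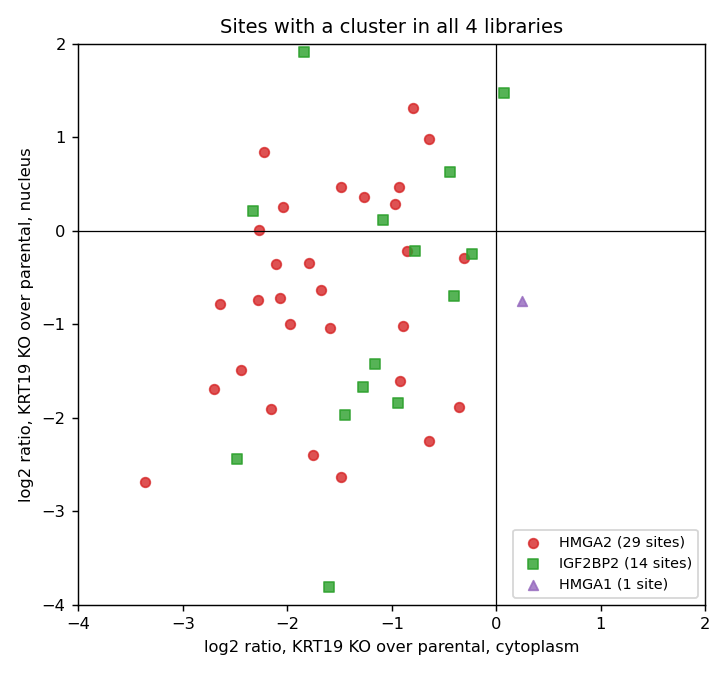
Log2 ratio of KRT19 KO to parental RPM in the cytoplasm (horizontal) and nucleus (vertical), 1 point for each site with a cluster in all 4 libraries (29 of HMGA2, 14 of IGF2BP2, 1 of HMGA1). Every HMGA2 point lies left of 0, as did 5658 of the 8656 such sites of all genes, and 20 of the 29 also lie below 0. Scaled to intronic reads, 23 of the 28 intronic HMGA2 sites were below 0 in the cytoplasm, against 38.8% over all genes.

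Between the fractions, HMGA2 was lower in the cytoplasm than in the nucleus by less than 2-fold in both cell lines. The log2 ratio of cytoplasm to nucleus was -0.68 (-0.72 to -0.64) in parental against -0.80 (-0.86 to -0.74) in KRT19 KO cells, where the medians of all genes were -0.54 and -0.62. In parental cells 34.8% of genes were lower in the cytoplasm by more than 2-fold and 18.8% higher, and in KRT19 KO cells 41.2% were lower and 24.4% higher. On intronic reads alone the ratios were -0.02 (-0.06 to 0.02) and 0.13 (0.06 to 0.20). The intronic contacts of HMGA2 thus took up a like share of the intronic reads of both fractions. The medians of all genes on intronic reads were -0.36 and -0.30, and HMGA2 lay above 65.9% and 66.7% of genes. The comparisons of the fractions use the same 4 libraries as those of the cell lines and are not independent of them.

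In its 3'UTR (chr12:66357073-66360071, 2999 nt), HMGA2 differed in direction from its introns only in the cytoplasm and through 1 site. The 12 sites of the 3'UTR covered 12.6% of its length. They held 273 reads in the parental cytoplasm, 1260 in the KRT19 KO cytoplasm, 229 in the parental nucleus and 125 in the KRT19 KO nucleus. The log2 ratio of KRT19 KO to parental was 2.04 (1.85 to 2.24) in the cytoplasm and -0.75 (-1.08 to -0.43) in the nucleus. The cytoplasmic value rested on 1 site, chr12:66358618-66358652, with 1000 reads in the KRT19 KO cytoplasm, 22 in the KRT19 KO nucleus and no cluster in either parental library. These reads included 430 unique reads, and 53.4% of them carried T-to-C changes. Without this site the 3'UTR had 260 reads in the KRT19 KO and 273 in the parental cytoplasm, a log2 ratio of -0.23 (-0.48 to 0.02). Of the 498 3'UTR sites with at least 1000 reads in the KRT19 KO cytoplasm, 101 had no cluster in the parental cytoplasm. The reverse held for 19 of 260 such sites of the parental cytoplasm.

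Contacts of HNRNPK overlapped let-7 seed matches of HMGA2. The mature let-7a-5p, taken from RefSeq (GRCh38.p14), is shown with its seed, bases 2 to 8, in capitals, and below it are the HMGA2 windows with the match CTACCTC in capitals.
let-7a-5p: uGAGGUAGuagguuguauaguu
HMGA2 3'UTR, chr12:66358307-66358336, plus strand: atatatccccactactcaataCTACCTCtg
HMGA2 3'UTR, chr12:66359581-66359610, plus strand: caaaacacactaCTACCTCttaagtcccag
HMGA2 intron 3, chr12:66291964-66291993, plus strand: ccaaatccCTACCTCaatacattttaaaat
HMGA2 exon 1, chr12:66218736-66218765, plus strand: ctcctcctcttgCTACCTCcacctccaccg
The HMGA2 3'UTR held 4 such matches, at nt 21, 1256, 1668 and 2521, and 2 of them were overlapped by a cluster. The match at nt 1256 lay in the only 3'UTR site of HMGA2 found in all 4 libraries, with 196 reads in the parental cytoplasm, 171 in the KRT19 KO cytoplasm, 148 in the parental nucleus and 37 in the KRT19 KO nucleus. The match at nt 2521 had 37 and 17 reads in the parental and KRT19 KO cytoplasm and no nuclear cluster. The nearest sites to the matches at nt 21 and 1668 were 375 and 88 nt away, the second of them the site of 1000 reads. The windows in intron 3 and exon 1 hold the same letters outside the 3'UTR.

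Among the other members, IGF2BP1 and LIN28B had 4 matches each and HMGA1, IGF2BP2 and IGF2BP3 had 1 each in their 3'UTRs. In all, 3 of the 15 matches of the 6 genes were overlapped by a cluster. The only one outside HMGA2 was that of IGF2BP2, of which 2 nt lay in a cluster of 5 reads in the parental cytoplasm. Over all genes, 253 of 2109 matches in the 3'UTR of the canonical transcript were overlapped. Among genes with a cluster in that 3'UTR it was 18.05% of 1402 matches, while clusters covered 6.88% of those 3'UTRs. IGF2BP1 and LIN28B had no 3'UTR cluster, so the 15 matches compare with the 2109. A match counted as overlapped even in part, whereas coverage counts single nt, so these percentages are not on the same scale. By sequence, 4 of the 839 sites of the 6 genes held CTACCTC, a share of 0.477% (0.130 to 1.22%), and all 4 were in HMGA2. The share was 0.461% over all sites with a gene name. Among sites of the 3'UTR class it was 2 of 24 for the 6 genes, or 8.33% (1.03 to 27.0%), against 0.407% over all genes, and both of these were in HMGA2. The HMGA2 3'UTR was known for its let-7 sites and holds 4 matches, so this gap cannot show a preference of HNRNPK for them. The shorter TACCTC occurred in 1.79% (1.00 to 2.93%) of the 839 sites and in 1.37% of all sites. A match of these letters does not show that let-7 bound there.

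**Figure D5:**
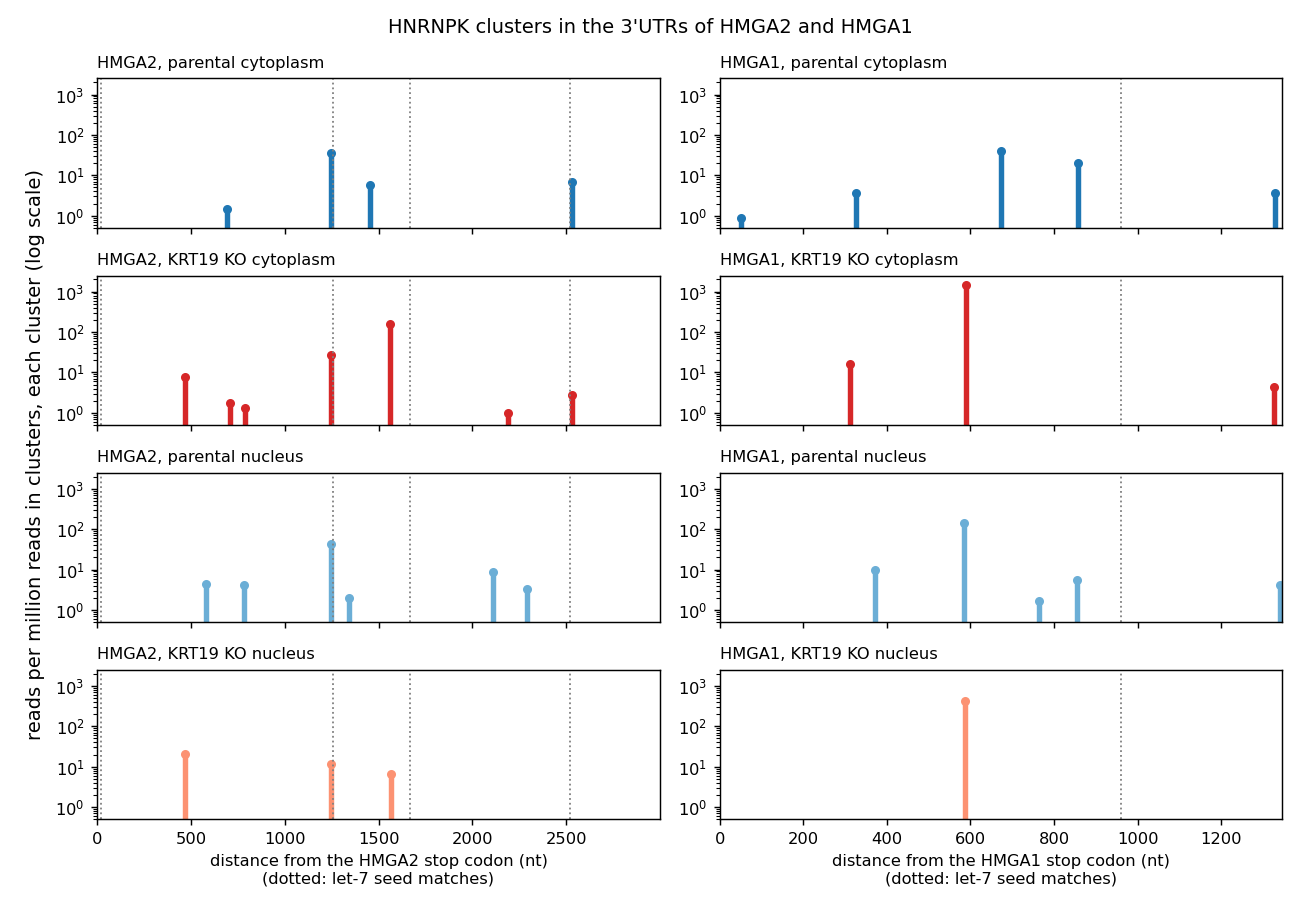
Clusters in the 3'UTRs of HMGA2 (left) and HMGA1 (right) in the 4 libraries, as the distance from the stop codon (nt) against the RPM of each cluster (log axis), with dotted lines at the let-7 seed matches. A cluster stands at the HMGA2 match at nt 1256 in every library, and the highest HMGA1 cluster is in 3 libraries and absent from the parental cytoplasm.

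HMGA1 (chromosome 6, 34204650 to 34214008, plus strand) differed from HMGA2 in that its reads came mostly from its 3'UTR and mostly from 1 site. The 3'UTR held 85.1% of its reads in the parental cytoplasm, 99.1% in the KRT19 KO cytoplasm, 66.6% in the parental nucleus and 88.4% in the KRT19 KO nucleus. The site chr6:34213226-34213276 had 8869 reads in the KRT19 KO cytoplasm, 505 in the parental nucleus, 1343 in the KRT19 KO nucleus and no cluster in the parental cytoplasm. It alone held 97.6%, 58.0% and 88.4% of the HMGA1 reads of those 3 libraries. The deposited annotation calls this site coding, while it lies in the 3'UTR of the canonical transcript of HMGA1 (34212662 to 34214008). Its window had 1 match in the genome, also with 1 mismatch allowed, and no cluster outside the site in any library shared a word of 18 nt with it. The pseudogenes HMGA1P1 and HMGA1P4 had 1 cluster each, of 32 reads in the KRT19 KO cytoplasm and 11 reads in the parental nucleus. In the parental cytoplasm the deepest HMGA1 site was instead chr6:34213319-34213353, with 222 reads and no cluster in the other 3 libraries.

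The HMGA1 level was 80.0 RPM in the parental against 1461 RPM in the KRT19 KO cytoplasm, 18.3-fold higher, with a log2 ratio of 4.19 (4.05 to 4.33), above 97.9% of the genes. In the nucleus it was 246 and 467 RPM, with a log2 ratio of 0.92 (0.80 to 1.05). Without the site at 34213226 the levels were 80.0 and 34.4 RPM in the cytoplasm and 103 and 54.4 RPM in the nucleus, and the log2 ratios became -1.22 and -0.93. The direction thus turned on 1 site in both fractions. Of the 48 sites of any gene with at least 5000 reads in the KRT19 KO cytoplasm, 9 had no cluster in the parental cytoplasm, and of the 29 such sites of the parental cytoplasm 7 had none in the KRT19 KO cytoplasm. On the site itself, T-to-C reads made up 36.5%, 37.8% and 38.1% in the KRT19 KO cytoplasm, parental nucleus and KRT19 KO nucleus, below the 59.6%, 72.9% and 76.7% of all reads in those libraries.

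Elsewhere in HMGA1, the site with a cluster in all 4 libraries lay in intron 1 (chr6:34204768-34204806), with 37 reads in the parental cytoplasm, 49 in the KRT19 KO cytoplasm, 22 in the parental nucleus and 12 in the KRT19 KO nucleus. A site in intron 2 (chr6:34207845-34207880) had 159 reads in the parental against 62 in the KRT19 KO nucleus, 23 in the KRT19 KO cytoplasm and no cluster in the parental cytoplasm. It was deepest in the nuclei. The deposited annotation calls the site in intron 1 5'UTR, so its reads are not among the intronic reads that follow. Ratios with that site counted as intronic were not computed. Intronic HMGA1 reads were 29 in the parental cytoplasm and 36 in the KRT19 KO cytoplasm, and 269 and 165 in the nuclei. Relative to all intronic reads they were lower in the cytoplasm than in the nucleus, with log2 ratios of -3.20 (-3.81 to -2.65) in parental against -1.76 (-2.32 to -1.23) in KRT19 KO cells, where 26.7% and 25% of genes were lower by more than 2-fold.

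IGF2BP2 (chromosome 3, 185360918 to 185542830, minus strand) was bound almost only in introns, which held between 98.0% and 99.9% of its reads in each library. Of its 276 sites, 194 lay in intron 2, the longest, at 1.55 sites per kb. Its deepest site, in intron 10 (chr3:185386184-185386224), had 236 reads in the parental cytoplasm, 154 in the KRT19 KO cytoplasm, 152 in the parental nucleus and 120 in the KRT19 KO nucleus. This site had a cluster in every library, whereas the next, in intron 2 (chr3:185485511-185485554), had 444 reads in the parental cytoplasm, 56 in the KRT19 KO nucleus and no cluster in the other 2 libraries. The level of the gene was 687 RPM in the parental against 275 RPM in the KRT19 KO cytoplasm, with a log2 ratio of -1.32 (-1.40 to -1.24), and 954 and 717 RPM in the nuclei, with a log2 ratio of -0.41 (-0.49 to -0.34). It was thus lower by more than 2-fold in the cytoplasm and within 2-fold in the nucleus. On intronic reads alone the ratios were -0.44 (-0.53 to -0.36) and -0.24 (-0.31 to -0.16), both within 2-fold.

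Within IGF2BP2 the nuclear ratio differed between introns, of which those below were chosen after their values were seen. Intron 2 gave -0.03 (-0.12 to 0.06) with 2023 parental and 1821 KRT19 KO reads, while intron 7 gave -3.04 (-3.46 to -2.64) with 509 and 57 reads and intron 9 gave -4.23 (-5.25 to -3.36) with 224 and 11 reads. Few sites carried much of this. In the parental nucleus the deepest sites of intron 7 held 196 and 153 reads, against no cluster and 10 reads in the KRT19 KO nucleus. The deepest of intron 9 held 157 reads, against no cluster. In the cytoplasm introns 7 and 9 gave -1.07 (-1.40 to -0.75) and -0.89 (-1.36 to -0.43), which became -0.19 (-0.52 to 0.12) and -0.012 (-0.48 to 0.45) on intronic scaling, while the nuclear values became -2.87 (-3.29 to -2.47) and -4.06 (-5.08 to -3.19). Of 31 IGF2BP2 sites of at least 50 reads in the cytoplasm, 21 were lower by more than 2-fold in KRT19 KO cells and 2 were higher, where 27.7% of all sites were lower and 32.1% higher. Of 28 such sites in the nuclei 14 were lower and 6 higher, against 38.2% and 23.7% of all sites. In the cytoplasm 8 of the 21 lower sites had no KRT19 KO cluster, and the 2 higher ones had no parental cluster. In the nuclei this held for 4 of the 14 lower and 5 of the 6 higher sites. On intronic sites scaled to intronic reads, 10 of 31 were lower and 3 higher in the cytoplasm, against 24% and 28.9%. In the nuclei 11 of 27 were lower and 6 higher by that scaling, against 36.6% and 24.5%. Of its 14 sites found in all 4 libraries, 13 were lower in the KRT19 KO cytoplasm and 9 in both fractions. Over all genes 5658 of 8656 such sites were lower in the cytoplasm, and 38.4% in both fractions. By the intronic scaling the IGF2BP2 counts were 9 and 6, against 38.8% and 23.0% of such intronic sites of all genes. Between the fractions, the log2 ratio of cytoplasm to nucleus was -0.47 (-0.54 to -0.41) in parental against -1.38 (-1.47 to -1.29) in KRT19 KO cells. The medians of all genes were -0.54 and -0.62, and 34.8% and 41.2% of genes were lower in the cytoplasm by more than 2-fold. The IGF2BP2 ratios became 0.21 (0.15 to 0.28) and 0.01 (-0.08 to 0.10) on intronic reads, and its parental value was 0.069 with scaling to the median gene.

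IGF2BP3 (chromosome 7, 23349828 to 23510110, minus strand) joined intronic contacts in all libraries to 1 strong 3'UTR contact in the cytoplasm. That site, chr7:23350385-23350436, had 800 reads in the parental against 368 in the KRT19 KO cytoplasm and no cluster in either nucleus. It held 44.5% and 52.8% of the IGF2BP3 reads of the cytoplasmic libraries, with 42.4% and 40.5% of its reads carrying T-to-C changes. The deepest intronic site, in intron 9 (chr7:23382346-23382378), had 101 reads in the parental against 44 in the KRT19 KO nucleus, 23 in the KRT19 KO cytoplasm and no cluster in the parental cytoplasm. The next, in intron 10 (chr7:23378467-23378504), had 134 and 8 reads in the parental and KRT19 KO nucleus alone. Intronic IGF2BP3 reads were 970 and 323 in the parental and KRT19 KO cytoplasm, and 1205 and 510 in the nuclei.

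The level of IGF2BP3 was 324 RPM in the parental against 112 RPM in the KRT19 KO cytoplasm, with a log2 ratio of -1.53 (-1.66 to -1.40), and 341 and 157 RPM in the nuclei, with a log2 ratio of -1.12 (-1.27 to -0.97). The level was lower by more than 2-fold in both fractions. On intronic reads the ratios were -0.87 (-1.06 to -0.69) and -0.95 (-1.11 to -0.80), within 2-fold. Of 9 sites with at least 50 reads in the nuclei, 7 were lower in KRT19 KO cells by more than 2-fold, 5 of them with no KRT19 KO cluster, and none was higher, where 38.2% of all sites were lower and 23.7% higher. Of 5 in the cytoplasm 2 were lower, 1 of them with no KRT19 KO cluster, and 3 within 2-fold. Over all sites 27.7% were lower and 32.1% higher in the cytoplasm. The log2 ratio of cytoplasm to nucleus was -0.07 (-0.18 to 0.03) in parental against -0.48 (-0.65 to -0.32) in KRT19 KO cells. The medians of all genes were -0.54 and -0.62. Without the 3'UTR site the IGF2BP3 ratios were -0.92 and -1.57. With scaling to the median gene they were 0.47 and 0.13, so the direction turned with the scaling.

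IGF2BP1 (chromosome 17, 47074747 to 47133507) and LIN28B (chromosome 6, 105384491 to 105531207) had too few reads for any ratio. The IGF2BP1 clusters lay in introns 2 and 5, with 1 and 2 unique reads. The LIN28B cluster in intron 3 had 3 unique reads, all with T-to-C changes, and a G content of 36% against 6.56% over all intronic clusters. Neither gene had a cluster in its 3'UTR, of 6701 and 4549 nt, although those 3'UTRs hold 8 of the 15 let-7 matches.

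The contacts of the 6 genes were rich in T, A and C and poor in G, as were those of other genes, and the share with CCC differed between members. The motif CCC, searched on the strand of the gene, was in 293 of 839 sites, a share of 34.9% (31.7 to 38.3%), against 40.7% of all 457820 sites with a gene name. It was in 30.5% (26.1 to 35.1%) of HMGA2 sites, 38.0% (32.3 to 44.1%) of IGF2BP2 sites, 37.1% (28.3 to 46.5%) of IGF2BP3 sites and 15 of 21 HMGA1 sites, or 71.4% (47.8 to 88.7%). The HMGA2 interval lay below the share of all sites and that of HMGA1 above it, while those of IGF2BP2 and IGF2BP3 held it. HMGA2 gave 423 of the 839 sites. Over intronic sites alone the 6 genes had 34.3% (31.0 to 37.7%), against 40.8%. Intronic clusters of the members held 25.7% C, 35.2% T, 32.0% A and 7.11% G, against 27.0%, 35.5%, 30.9% and 6.56% over all intronic clusters. T-to-C reads made up 59.6% (58.8 to 60.3%) of the members' reads in the parental cytoplasm, 47.4% (46.6 to 48.1%) in the KRT19 KO cytoplasm, 62.2% (61.4 to 62.9%) in the parental nucleus and 63.3% (62.3 to 64.4%) in the KRT19 KO nucleus. The shares over all reads were 66.4%, 59.6%, 72.9% and 76.7%, so that the members were lower in each library. In the KRT19 KO cytoplasm this rested on HMGA1, since the other members together had 61.0% there, above the library, while they had 59.9%, 62.6% and 68.3% in the parental cytoplasm, parental nucleus and KRT19 KO nucleus.

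Of the 839 sites of the 6 genes, 512 were found in 1 library, 185 in 2, 98 in 3 and 44 in all 4. The share in all 4 was 5.24%, against 1.89% for all sites with a gene name. Depth went with this sharing, since sites in all 4 libraries had a median of 141.5 reads and sites in 1 library a median of 9. Reads of a site were summed over libraries and no cluster had fewer than 5, so part of this relation was fixed in advance. Among sites of at least 100 and fewer than 200 reads, 29.8% of the members' 57 sites were in all 4 libraries, against 30.6% of all intronic and 5.51% of all 3'UTR sites. Among sites of at least 200 reads, it was 39.1% of 46, against 49.1% and 20.6%. At these depths the members' share lay close to or below that of all intronic sites. None of the 116 IGF2BP3 sites was found in all 4 libraries. Of the 185 sites found in 2 libraries, 45 were in both parental and 16 in both KRT19 KO libraries, and 34 were in both cytoplasmic and 33 in both nuclear libraries. The members had 393 and 247 clusters in the parental and KRT19 KO cytoplasm, and 418 and 296 in the nuclei. These pair counts were not made over all genes, so they do not set the members apart.

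The genes around the members in the let-7 pathway showed no common direction. Of 7 genes of let-7 biogenesis and turnover, 6 had a cluster, and of the 4 with enough reads none was higher by more than 2-fold in KRT19 KO cells, 2 were lower in the cytoplasm and 1 in the nucleus. Over all genes 20.6% were higher and 22.4% lower in the cytoplasm, and 14.4% higher and 18.2% lower in the nucleus, and with so few genes a list these counts do not set any list apart. The median log2 ratios were -0.95 and -0.23. DICER1, which cuts let-7 from its precursor, had 125 and 113 RPM in the parental and KRT19 KO cytoplasm, while DIS3L2, which degrades uridylated let-7 precursors, had 89.0 and 31.5 RPM. ZCCHC11 and ZCCHC6, which add uridines to RNA ends, had 82.1 and 62.1 RPM, and 95.6 and 28.8 RPM. Of 10 other let-7 targets, all had a cluster, and of 8 with enough reads 4 were higher and 3 lower in the KRT19 KO cytoplasm, and none higher and 1 lower in the nucleus. Their medians were 0.79 and -0.13. NRAS, a small GTPase, had 491 RPM in the parental against 1819 RPM in the KRT19 KO cytoplasm. The growth factor receptor gene IGF1R had 228 and 104 RPM, and the nuclear receptor gene NR6A1 had 185 and 45.2 RPM. HMGA2, IGF2BP2 and IGF2BP3 by all reads thus shared the lower cytoplasmic level with some let-7 targets and not with others. These lists and those below were scaled to all reads only, so the gap in intronic reads between the cytoplasmic libraries was not taken out.

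Of 6 partners and targets of the IGF2BP proteins, 5 had a cluster, and 2 of 5 were higher and 2 lower by more than 2-fold in the KRT19 KO cytoplasm (20.6% and 22.4% over all genes), with a median log2 ratio of 0.36. SYNCRIP, an RNA-binding protein gene, had 246 RPM in the parental against 872 RPM in the KRT19 KO cytoplasm, and HNRNPU had 517 and 665 RPM. The helicase gene DHX9 had 162 and 80.9 RPM, and YBX1 had 33.9 and 15.6 RPM. Of 4 with enough reads in the nuclei none passed 2-fold, with a median of 0.62. Of 6 other high mobility group genes, all had a cluster, and of 4 with enough reads 1 was higher and 1 lower in the KRT19 KO cytoplasm, and of 3 in the nucleus 1 was lower. The medians of those with reads in both libraries were -0.22, over 2 genes, and -0.92. HMGB1, a chromatin protein without AT-hooks, had 545 and 368 RPM in the cytoplasm and 243 and 167 RPM in the nucleus of parental and KRT19 KO cells. RPSAP52, a transcribed pseudogene antisense to the start of HMGA2, had 65.0 and 33.3 RPM in the cytoplasm and 125 and 95.0 RPM in the nucleus, and HMGA2-AS1 and IGF2BP2-AS1 had no cluster.

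Likeness to HMGA2 was measured as the Euclidean distance of log2 RPM, with 1 read added and centered on each gene's mean, over the 4 libraries among 5447 genes with at least 500 reads. The closest were HOMER1 at 0.135, AC007246.3 at 0.157 and STYK1 at 0.189. HOMER1 had 187 reads in the parental cytoplasm, 74 in the KRT19 KO cytoplasm, 178 in the parental nucleus and 64 in the KRT19 KO nucleus, a pattern like that of HMGA2 at a far lower level. Among the members, IGF2BP3 was at 0.485 and IGF2BP2 at 0.625, while HMGA1 was at 4.29.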

How the data were processed

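HNRNPK PAR-CLIP was analysed in 4 libraries of 5551612, 6216226, 3537577 and 3252800 reads in clusters (parental and KRT19 KO cytoplasm, parental and KRT19 KO nucleus). The 17 RNA-seq samples were not analysed here. Per the study's methods, the authors demultiplexed reads with bcl2fastq (version 2.20.0) and cutadapt, collapsed sequences before adapter and UMI removal, aligned to hg19 and called and annotated clusters with PARalyzer in PARpipe. The submitters' processing notes name another build, but the cluster sequences were identical to GRCh37. The authors deposited raw counts of reads, unique reads and T-to-C reads per cluster, and remaining duplicates would inflate them. Reads were scaled to 1000000 reads in clusters, with exact Poisson, binomial and Clopper-Pearson intervals (95%). Genes or sites of at least 50 reads in a pair of libraries were called past 2-fold. Canonical transcripts came from GENCODE lifted to GRCh37. Named were the 6 genes, the 3 deepest sites of each, every site in all 4 libraries where a gene had at most 5, KRT19, the 3 genes most like HMGA2 and up to 4 genes of each list, those with the most reads, of which 1 is not reported here. Sites at let-7 matches followed from the match. Members and lists were chosen with earlier results of these data known. Site joining and ratios were tested on simulated data. Alternatives covered read and conversion minimums, unique reads, scaling, overlap, deepest clusters and, chosen after seeing the data, intronic scaling (of genes, introns and sites) and 3'UTRs by the canonical transcript. Python 3.11.15, numpy 2.4.6, pandas 2.3.3, scipy 1.17.1, pysam 0.24.0 and matplotlib 3.10.9 were used.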

Additional observations from a re-analysis of the deposited data

Results flagged for a closer look

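HMGA1 had opposite directions between the fractions in the 2 cell lines. Its log2 ratio of cytoplasm to nucleus was -1.62 in parental against 1.64 in KRT19 KO cells, a difference that was not tested because each condition had 1 library. Without the site at chr6:34213226-34213276 the ratios were -0.37 and -0.66, lower in the cytoplasm in both lines.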

How the results depend on the processing

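The log2 ratio of HMGA2 between KRT19 KO and parental cytoplasm was -1.30 with median scaling, -1.46 on unique reads, -1.45 when scaled without the 10 deepest clusters, -1.74 without the deepest site of the gene and -0.95 on intronic reads. In the nucleus it was -1.15 with median scaling and -1.09 on intronic reads. In the same order of 5 settings, cytoplasm over nucleus was -0.14, -0.73, -0.50, -0.73 and -0.015 in parental and -0.18, -0.91, -0.73, -1.16 and 0.13 in KRT19 KO cells. HMGA1 turned to -1.22 for KRT19 KO over parental cytoplasm without its deepest site, and for cytoplasm over nucleus in KRT19 KO cells to -0.66 without that site and -1.76 on intronic reads, where IGF2BP2 turned to 0.0069. Of 60 recomputed ratios of HMGA1, IGF2BP2 and IGF2BP3, 49 kept their sign and 11 did not, among them cytoplasm over nucleus of IGF2BP3 at 0.47 and 0.13 in parental and KRT19 KO cells with median scaling. Members' clusters of at least 10 reads numbered 260 and 158 in the parental and KRT19 KO cytoplasm, and those with at least 2 conversion locations 242, 194 and 125 in the parental cytoplasm, parental nucleus and KRT19 KO nucleus. The share of the members' reads in the deposited 3'UTR class was 8.53% on unique reads in the parental cytoplasm, and 23.9% and 2.22% without the deepest cluster in the KRT19 KO cytoplasm and nucleus. By the canonical transcript, chosen after seeing the data like the intronic scaling, it was 9.16%, 67.0%, 5.55% and 17.9% in the parental and KRT19 KO cytoplasm and the parental and KRT19 KO nucleus, since the deepest HMGA1 site moved from coding to 3'UTR. The CCC share was 25.3% by the consensus of the study and 41.7% at sites of at least 20 reads, where all genes had 29.1% and 48.4%. Where no other cause is named, the cause was not tested. Clusters under 5 reads were not in the data, so depth limits what a missing cluster means. No paired analysis was possible because each condition had 1 library and no test was made.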
